A study of Mus musculus with 40 samples.

Results

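L1MdTf and L1MdGf are young clades of mouse LINE-1 retrotransposons, here divided into the families L1MdTf_I, L1MdTf_II, L1MdTf_III, L1MdGf_I and L1MdGf_II. Their members were taken by name from the table of single transposable element (TE) copies and numbered 22013 of 3799629 annotated copies, and the same 5 of 1243 families were followed in the table of multimapped reads. Each copy was classed by its annotated length, as long (5000 bases or more, 4738 copies) or short (17275 copies). L1MdGf_II had 7964 copies, L1MdTf_III 4580, L1MdTf_II 3801, L1MdGf_I 3055 and L1MdTf_I 2613. Long copies made up 923 of the L1MdTf_I copies, 1041 of L1MdTf_II, 1204 of L1MdTf_III, 625 of L1MdGf_I and 945 of L1MdGf_II.

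Total RNA of 40 samples in 8 groups was sequenced to ask how silencing depends on the nuclear lamins and on the lamin B receptor (LBR), proteins that hold heterochromatin at the nuclear periphery. Every genotype was kept as naive mouse embryonic stem (mES) cells in serum-free 2i + LIF medium, and each was also differentiated into epiblast-like cells (EpiLCs), which model the primed epiblast, with FGF (20 ng/mL) and with Activin A at 12 ng/mL, and collected after 48 hours. Wild type (WT) had 8 libraries per stage, and the LBR knockout (LBRKO), the lamin triple knockout (TKO, without Lmna, Lmnb1 and Lmnb2) and the lamins and LBR quadruple knockout (QKO) had 4 per stage. According to the study's methods the TKO cells and the WT cells came from littermates, the LBRKO cells were made from the WT cells by Cas9 editing, and the QKO cells are a single surviving clone edited in the TKO cells. Clone and genotype cannot be told apart in QKO. Line and lamin genotype likewise cannot be told apart in TKO, or in the QKO cells made from it. Which of the LBRKO clones these libraries came from is not given in the labels. The study's karyotypes gave a trisomy in both populations of the TKO cells and in a minor population of the WT cells, and a missing Y chromosome in part of each line. Per the study's methods each replicate was 1 well of cells, so the p-values measure the spread between wells of a line and not between lines.

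LINE-1 elements move by copying their RNA into DNA at a new site. A full-length copy carries an internal promoter in its 5′ untranslated region, a first open reading frame for an RNA-binding protein and a second for an endonuclease and reverse transcriptase, and most copies in the genome are truncated at their 5′ end and cannot move. The Tf, Gf and A clades hold the mouse copies that are still mobile. DNA methylation and methylation of histone H3 lysine 9 take part in repressing their transcription.

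Each family has short runs of sequence that are more frequent in its long copies than in those of the other families. A run of 30 bases frequent in the long copies of each family and rare in the other 4 is printed here from GRCm39, in lower case throughout because the whole run is the marker. The L1MdTf_I run was present in 649 of 923 long copies (70.3%), the L1MdTf_II run in 564 of 1041 (54.2%), the L1MdTf_III run in 961 of 1204 (79.8%), the L1MdGf_I run in 534 of 625 (85.4%) and the L1MdGf_II run in 378 of 945 (40%). The L1MdTf_I and L1MdTf_II runs overlap in the same part of the element and were also found in 22.9% of long L1MdTf_II and 21.2% of long L1MdTf_I copies. The runs of L1MdTf_III, L1MdGf_I and L1MdGf_II were found in at most 5.29%, 2.22% and 4.96% of the long copies of any other family.
L1MdTf_I run (chr15:103320895-103320924, + strand): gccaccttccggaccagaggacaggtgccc
L1MdTf_II run (chr16:16326075-16326104, + strand): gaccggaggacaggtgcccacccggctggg
L1MdTf_III run (chr14:93452636-93452665, - strand): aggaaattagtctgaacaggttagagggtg
L1MdGf_I run (chrY:1120813-1120842, + strand): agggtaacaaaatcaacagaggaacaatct
L1MdGf_II run (chr19:27380336-27380365, + strand): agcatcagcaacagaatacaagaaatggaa

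L1MdGf_I differed from the other families inside the first reading frame. The most frequent first frame was 1113 bases (371 codons) long in L1MdTf_I, L1MdTf_II, L1MdTf_III and L1MdGf_II, and 1155 bases (385 codons) in L1MdGf_I. The 26-base unit in capitals below occurred once in 888 of 923 long L1MdTf_I copies, in 985 of 1041 L1MdTf_II copies and in 1029 of 1204 L1MdTf_III copies, and 2 times in 478 of 625 long L1MdGf_I copies. Of the long L1MdGf_II copies, 502 held it once and 431 did not hold it. The stretch printed for L1MdTf_I was identical in the L1MdTf_II and L1MdTf_III copies used for the comparison.
L1MdTf_I_dup1127 (chr7:107625077-107625166, - strand): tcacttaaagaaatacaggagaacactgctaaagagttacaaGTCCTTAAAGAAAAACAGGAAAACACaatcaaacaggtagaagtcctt
L1MdGf_I_dup2473 (chr14:35156110-35156241, + strand): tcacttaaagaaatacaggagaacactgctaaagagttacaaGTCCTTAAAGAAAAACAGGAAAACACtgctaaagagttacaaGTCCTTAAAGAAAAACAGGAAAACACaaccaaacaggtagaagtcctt

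Reading frames separated the families further. A first frame of 1000 to 1300 bases and a second of at least 3800 bases were both open in 964 of 4738 long copies (20.3%). By family this held for 365 of 923 L1MdTf_I copies (39.5%), 340 of 1041 L1MdTf_II copies (32.7%), 112 of 1204 L1MdTf_III copies (9.30%), 139 of 625 L1MdGf_I copies (22.2%) and 8 of 945 L1MdGf_II copies (0.847%). The median number of CpG dinucleotides in the first 1000 bases of a long copy was 45 in L1MdTf_I, 43 in L1MdGf_I, 38 in L1MdTf_II, 29 in L1MdTf_III and 21 in L1MdGf_II. Of the long copies, 70.9% lay outside every gene span, 11.8% within a gene on its strand and 17.3% within a gene on the other strand.

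The libraries held 22.6 to 48.9 M reads on genes and 2.76 to 7.83 M uniquely mapped reads on TE copies, of which 14381 to 55656 fell on these copies (0.318 to 1.07%). Near-identical copies share most of their reads. The uniquely mapped reads came to 30.3 to 43.0% (medians over libraries) of the multimapped family counts in L1MdTf_I, L1MdTf_II, L1MdTf_III and L1MdGf_I and to 58.7% in L1MdGf_II. A value for a single copy covers the part of it that differs from the others. The targeted genes followed the labels in part. Mean Lmnb1 counts-per-million (CPM) were 437 in WT mES cells against 6.99 in TKO and 11.2 in QKO. Lbr, whose knockout leaves a transcript, was 329 in WT against 178 in LBRKO mES. Of the 4 targeted genes 3 were called lower than WT in TKO and in QKO mES cells. In EpiLCs 2 were called lower in TKO and 2 in QKO. None was called in LBRKO at either stage, and 1 was called higher in QKO than in TKO EpiLCs. Summed naive pluripotency markers ranged from 4082 to 4715 CPM in WT mES and from 151 to 234 CPM in WT EpiLCs, and summed fibroblast markers did not exceed 19.5 CPM in any library. WT mES replicate 7 had the highest level of most of these families among the WT mES libraries, and counts of copies called without it are given beside those with it.

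In naive mES cells L1MdTf_I, L1MdTf_II, L1MdGf_I and L1MdGf_II transcripts were higher in TKO than in WT and higher still in QKO. L1MdTf_III was lower than WT in TKO and close to it in QKO. Family levels are CPM of multimapped reads, and a family was called at an adjusted p under 0.05 and a change of over 2-fold. L1MdGf_I ran from 75.2 through a median of 85.0 to 157 CPM in WT mES cells, was 59.1, 58.1, 74.4 and 64.3 CPM in LBRKO, 294, 253, 287 and 280 CPM in TKO, and 436, 384, 405 and 402 CPM in QKO. Every TKO library was above every WT library and every QKO library above every TKO library. The change against WT was 2.91-fold in TKO (log2 1.54, SE 0.14, edgeR adjusted p = 1.16e-11) and 4.25-fold in QKO (log2 2.09, SE 0.13, edgeR adjusted p = 4.65e-16), and in LBRKO log2 -0.58 (SE 0.14, edgeR adjusted p = 0.00231), under the 2-fold threshold.

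L1MdTf_I ran from 377 through 436 to 700 CPM in WT mES, was 353, 350, 351 and 277 CPM in LBRKO, 754, 673, 752 and 728 CPM in TKO, and 1154, 1024, 983 and 1014 CPM in QKO. L1MdTf_II ran from 479 through 587 to 699 CPM in WT mES, was 363, 546, 364 and 382 CPM in LBRKO, 914, 754, 952 and 860 CPM in TKO, and 1382, 1079, 1125 and 1207 CPM in QKO. Both families showed the same order, with the QKO libraries above all TKO and WT libraries and the LBRKO libraries at or below the lower part of the WT range, but L1MdTf_I in 1 TKO library lay below the highest WT library. In QKO the rise was 2.23-fold for L1MdTf_I (log2 1.16, SE 0.12, edgeR adjusted p = 1.73e-10) and 2.03-fold for L1MdTf_II (log2 1.02, SE 0.14, edgeR adjusted p = 7.49e-08). In TKO they differed from WT by log2 0.64 (edgeR adjusted p = 8.97e-05) and 0.56 (edgeR adjusted p = 0.00243), and in LBRKO by -0.49 (edgeR adjusted p = 0.00327) and -0.51 (edgeR adjusted p = 0.00699), all under 2-fold.

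L1MdTf_III ran from 187 through 211 to 340 CPM in WT mES, was 173, 172, 200 and 166 CPM in LBRKO, 146, 130, 156 and 155 CPM in TKO, and 234, 216, 254 and 227 CPM in QKO. The TKO libraries did not overlap WT and lay below it (log2 -0.61, SE 0.13, edgeR adjusted p = 0.000372), and the QKO libraries lay inside the WT range (log2 0.06, edgeR adjusted p = 0.725). L1MdGf_II ran from 77.6 through 91.1 to 124 CPM in WT mES, was 82.1, 105, 90.1 and 108 CPM in LBRKO, 157, 139, 166 and 166 CPM in TKO, and 239, 229, 279 and 248 CPM in QKO. Its libraries of TKO and QKO did not overlap WT or each other, and the change was log2 0.69 in TKO (SE 0.12, edgeR adjusted p = 2.44e-05) and 1.35 in QKO (2.55-fold, SE 0.12, edgeR adjusted p = 2.44e-12).

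Counted together in mES cells, 1 of the 5 families was called higher in TKO, where 2.1% of all 1142 TE families tested were, and 4 of 5 in QKO, where 25.1% were. With WT replicates 5 to 8 alone 2 families were called in QKO, and L1MdTf_I and L1MdTf_II, both at log2 0.98, were under 2-fold. None was called in LBRKO, where 0.525% of TE families were called higher and 0.0876% lower, and none between QKO and TKO, where 4.47% were called higher. At an unadjusted p under 0.05 by edgeR, 4 and 5 families differed in these comparisons, none by over 2-fold, and DESeq2 called none. The 5 families nonetheless differed between QKO and TKO by log2 0.46 to 0.67 with no overlap of libraries (edgeR adjusted p from 0.000545 to 0.0358), beside a median of 0.57 over all TE families. The median over all TE families was 0.30 in LBRKO, 0.25 in TKO and 0.82 in QKO against WT. In LBRKO L1MdTf_I, L1MdTf_II and L1MdGf_I were lower than WT, on the other side of zero from that median. The values of L1MdTf_III (log2 -0.33, edgeR adjusted p = 0.0542) and L1MdGf_II (log2 -0.02, edgeR adjusted p = 0.928) did not pass.

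**Figure D1:**
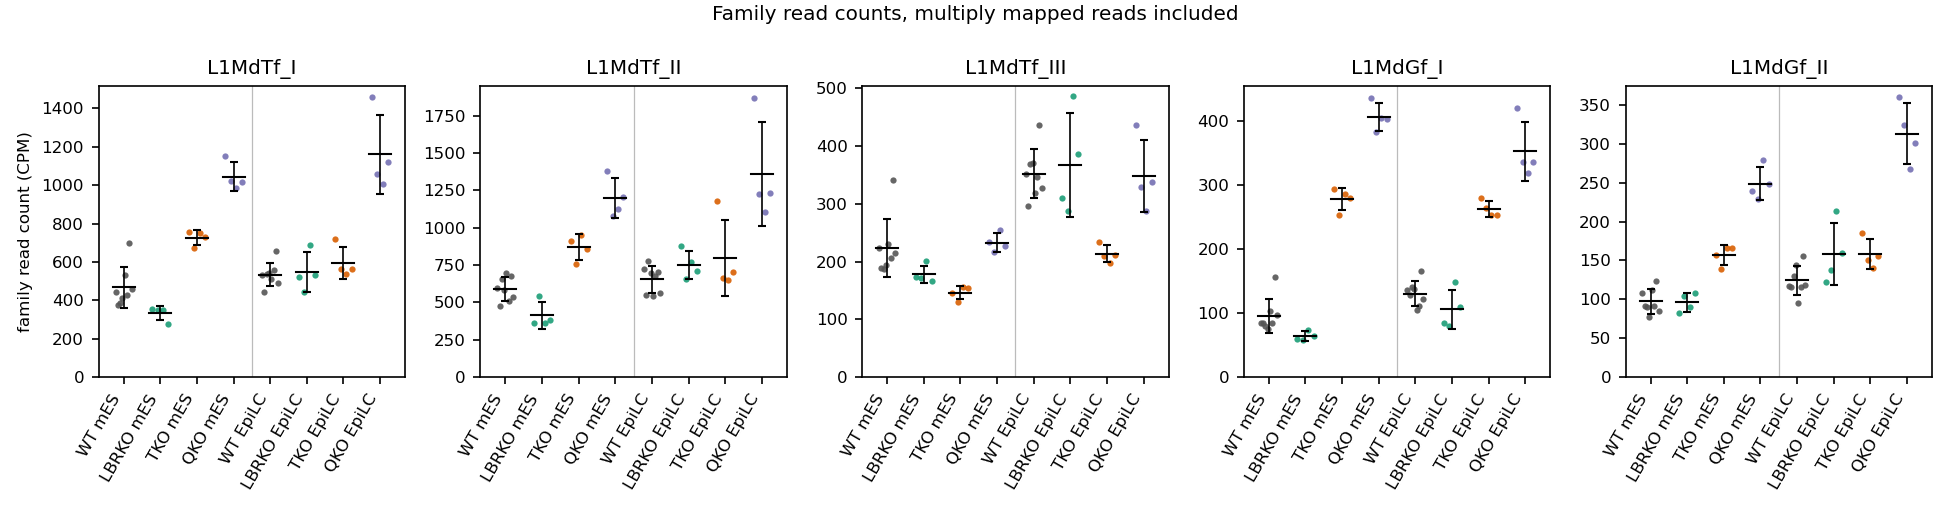
Multimapped CPM of each L1MdTf and L1MdGf family in the 40 libraries, with one point per library, a horizontal bar at the group mean and an error bar of 1 SD on linear axes that start at 0, and with mES and EpiLC groups side by side. L1MdGf_I in TKO and QKO mES (253 to 436 CPM) stands above every WT mES library, and L1MdTf_III in TKO mES (130 to 156 CPM) below them.

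On the log2 scale the QKO value of each family lay above the sum of its LBRKO and TKO changes. The difference in mES cells was 1.01 for L1MdTf_I (SE 0.19, edgeR adjusted p = 0.000106), 0.98 for L1MdTf_II (edgeR adjusted p = 0.000959), 1.00 for L1MdTf_III (edgeR adjusted p = 0.000151), 1.13 for L1MdGf_I (edgeR adjusted p = 0.000139) and 0.68 for L1MdGf_II (edgeR adjusted p = 0.00778). Of all TE families, 7.53% passed this test in mES cells. In EpiLCs, where 22.4% passed, the difference was 0.93 for L1MdTf_I (edgeR adjusted p = 0.000276), 0.64 for L1MdTf_III, 0.73 for L1MdGf_I and 0.64 for L1MdGf_II (edgeR adjusted p from 0.00973 to 0.0113), and for L1MdTf_II it was 0.56 (edgeR adjusted p = 0.0529). For L1MdTf_III the positive difference is not a larger change in QKO. Its QKO change was 0.06 in mES cells, beside -0.33 in LBRKO and -0.61 in TKO. In EpiLCs it was -0.02 in QKO, beside 0.06 in LBRKO and -0.72 in TKO. The LBRKO, TKO and QKO values share the WT libraries of their stage.

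The passage of WT cells from mES to EpiLC changed each family by less than 2-fold. None was called by edgeR or DESeq2, beside 2.36% of TE families called higher and 2.19% lower, and 3 differed at an unadjusted p under 0.05. L1MdTf_III was higher in EpiLCs by log2 0.66 (SE 0.10, edgeR adjusted p = 4.65e-07), L1MdGf_I by 0.45 (edgeR adjusted p = 0.000825) and L1MdGf_II by 0.35 (edgeR adjusted p = 0.00236). L1MdTf_I and L1MdTf_II differed by 0.19 (edgeR adjusted p = 0.0959) and 0.15 (edgeR adjusted p = 0.279). Single copies moved in both directions, with 187 of 1469 tested copies called higher in EpiLCs and 51 lower, where 10% and 10.8% of all TE copies tested were called. Without WT mES replicate 7 these counts were 267 and 39, and with WT replicates 5 to 8 alone 87 were higher.

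In EpiLCs the same 4 families were called in QKO, and L1MdGf_I was called in TKO. L1MdGf_I ran from 105 through 132 to 166 CPM in WT EpiLCs, was 85.3, 80.6, 148 and 109 CPM in LBRKO, 280, 264, 253 and 254 CPM in TKO and 420, 336, 319 and 336 CPM in QKO. The TKO and QKO libraries lay above all WT libraries without overlapping each other, at 2.01-fold (log2 1.01, SE 0.14, edgeR adjusted p = 6.80e-07) of WT for TKO and, for QKO, at a higher level (log2 1.43, SE 0.14, edgeR adjusted p = 1.37e-11). The TKO value was close to the 2-fold threshold: leaving out single libraries moved it between log2 0.97 and 1.07, and some of these values are not called.

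L1MdTf_I in EpiLCs ran from 445 through 533 to 656 CPM in WT, was 718, 563, 536 and 565 CPM in TKO and 1457, 1056, 1006 and 1120 CPM in QKO. L1MdTf_II ran from 542 through 685 to 779 CPM in WT, was 1180, 662, 653 and 705 CPM in TKO and 1871, 1229, 1104 and 1233 CPM in QKO. In both families TKO replicate 1 and QKO replicate 1 stood above the other libraries of their group, the remaining TKO libraries lay inside the WT range and every QKO library lay above WT. The change in QKO was log2 1.12 for L1MdTf_I (2.17-fold, edgeR adjusted p = 2.97e-10) and 1.06 for L1MdTf_II (2.08-fold, edgeR adjusted p = 2.57e-08), and without QKO replicate 1 it was 0.99 and 0.86 and was no longer called. In TKO the changes of 0.16 and 0.29 did not pass (edgeR adjusted p = 0.447 and 0.180).

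L1MdTf_III ran from 296 through 349 to 436 CPM in WT EpiLCs, was 234, 210, 198 and 212 CPM in TKO and 436, 329, 288 and 338 CPM in QKO. TKO lay below every WT library (log2 -0.72, SE 0.13, edgeR adjusted p = 8.46e-05) and QKO around the WT range (log2 -0.02, edgeR adjusted p = 0.921). L1MdGf_II was 360, 324, 267 and 301 CPM in QKO EpiLCs against 96.0 to 156 CPM in WT, with no overlap (2.52-fold, log2 1.33, edgeR adjusted p = 2.54e-12). Over all TE families 0.701% were called higher in TKO EpiLCs and 26% in QKO EpiLCs, with medians of 0.01 and 0.85, and 0.876% in LBRKO EpiLCs, where none of the 5 families was called by edgeR or DESeq2 and 2 differed at an unadjusted p under 0.05. Between QKO and TKO EpiLCs the families differed by log2 0.42 (L1MdGf_I, edgeR adjusted p = 0.0309) to 0.98 (L1MdGf_II, edgeR adjusted p = 4.31e-07), and edgeR and DESeq2 called none over 2-fold, where 21.8% of TE families were called higher and the median was 0.84.

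The stage changed the effect of a genotype in 3 cases that passed the test of the difference. The LBRKO change was higher in EpiLCs than in mES cells by log2 0.52 for L1MdTf_I (edgeR adjusted p = 0.0357) and by 0.72 for L1MdTf_II (edgeR adjusted p = 0.0102), where 3.15% of TE families passed. The QKO change of L1MdGf_I was smaller in EpiLCs by 0.65 (log2 -0.65, edgeR adjusted p = 0.0108), where 5.25% of TE families passed. For TKO no family passed, the nearest being L1MdTf_I (-0.48, edgeR adjusted p = 0.0806) and L1MdGf_I (-0.53, edgeR adjusted p = 0.0914), where 2.8% of TE families passed.

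Summing the uniquely mapped reads over all copies of a family and length class, with no filter on low copies, located these changes. Long L1MdGf_I copies ran from 19.7 through 23.7 to 49.2 CPM in WT mES, were 17.0, 14.2, 21.9 and 18.2 CPM in LBRKO, 108, 92.0, 100 and 103 CPM in TKO, and 152, 141, 134 and 142 CPM in QKO. They rose 3.96-fold in TKO and 5.58-fold in QKO (both p = 0.00202 by a two-sided exact permutation test, the smallest that 4 against 8 libraries can give, adjusted 0.00826). The short L1MdGf_I copies rose less, by log2 0.75 in TKO (exact permutation, adjusted p = 0.0140) and 1.44 in QKO (exact permutation, adjusted p = 0.00826).

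The ratio of long to short L1MdGf_I reads within a library, which does not depend on depth or scaling, was 1.20 ± 0.160 (SD, n = 8) in WT mES, 0.783 ± 0.0803 (n = 4) in LBRKO, 2.81 ± 0.181 (n = 4) in TKO and 2.46 ± 0.315 (n = 4) in QKO. It differed from WT in all 3 mutants, by log2 -0.61 in LBRKO, 1.24 in TKO and 1.04 in QKO (each exact permutation, adjusted p = 0.00535). A single copy held a large part of this: the 5 most read long L1MdGf_I copies took 30.4% of the reads of their class, and without the most read copy the ratio differed by 0.69 in TKO and 0.76 in QKO. The long class itself then rose by log2 1.27 in TKO and 1.98 in QKO.

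Long L1MdTf_I and L1MdTf_II copies were 238 to 245 and 238 to 255 CPM in TKO mES and 339 to 406 and 364 to 420 CPM in QKO mES, against 129 to 264 and 128 to 260 CPM in WT. QKO did not overlap WT (log2 1.22 and 1.28, each exact permutation, adjusted p = 0.00826), while TKO lay below the highest WT library in both (log2 0.61 and 0.64, exact permutation, adjusted p = 0.0468 and 0.0398). In EpiLCs QKO differed for both classes (log2 1.11 and 1.09, each exact permutation, adjusted p = 0.00826) and TKO was at 0.17 and 0.18 (exact permutation, adjusted p = 0.151 and 0.145). Long L1MdGf_II copies rose from 26.7 ± 8.39 (SD, n = 8) to 66.3 ± 2.36 CPM (n = 4) in QKO mES and from 41.9 ± 6.23 (n = 8) to 88.9 ± 7.70 CPM (n = 4) in QKO EpiLCs.

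Long L1MdTf_III copies went the other way in TKO. They ran from 61.4 through 71.8 to 129 CPM in WT mES, were 48.1, 49.3, 51.5 and 53.4 CPM in TKO and 86.2, 85.6, 90.0 and 85.1 CPM in QKO. In EpiLCs they ran from 108 through 124 to 172 CPM in WT, were 70.7, 75.8, 74.1 and 80.5 CPM in TKO and 142, 111, 101 and 119 CPM in QKO. TKO lay below every WT library at both stages (log2 -0.59, exact permutation, adjusted p = 0.0188, and -0.78, exact permutation, adjusted p = 0.00826), and QKO overlapped WT at both (0.18, exact permutation, adjusted p = 0.423, and -0.13, exact permutation, adjusted p = 0.392). QKO exceeded TKO by log2 0.78 in mES and 0.64 in EpiLCs with no overlap (each exact permutation, adjusted p = 0.0468).

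Short L1MdTf_III copies rose in QKO by log2 1.26 in mES and 1.11 in EpiLCs (each exact permutation, adjusted p = 0.00826). The long to short ratio fell from 2.79 ± 0.234 (SD, n = 8) in WT mES to 1.43 ± 0.0419 (n = 4) in TKO and 1.33 ± 0.177 (n = 4) in QKO. Much of this was on chromosome Y, which parts of the cultures lack and which holds 109 of the 3376 short L1MdTf_III copies. Without chromosome Y copies the short class rose by 0.54 in QKO mES (exact permutation, adjusted p = 0.0485), and the value in QKO EpiLCs was 0.23 (exact permutation, adjusted p = 0.0682). The ratio fell by 0.55 in TKO mES and 0.33 in QKO mES in place of 0.96 and 1.07. Chromosome Y holds 47 of the 1204 long copies of this family, and without them the long class still differed by log2 -0.57 in TKO mES and -0.77 in TKO EpiLCs.

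**Figure D2:**
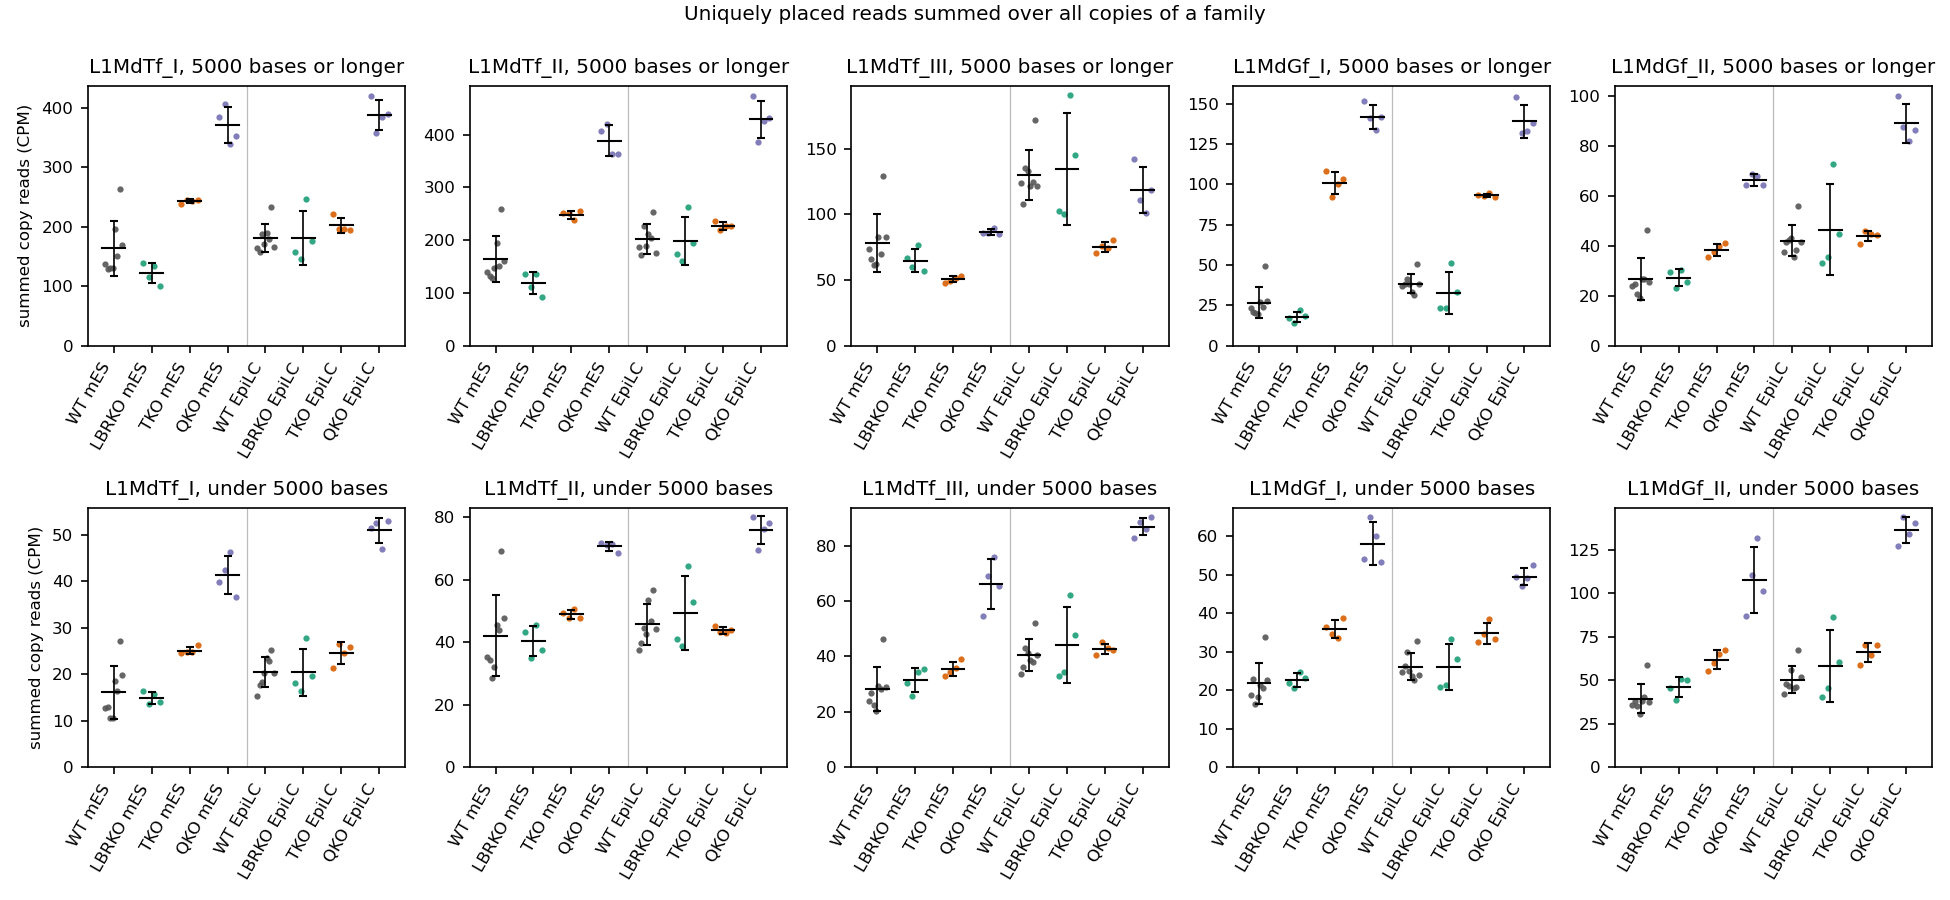
Summed CPM of uniquely mapped reads on long (5000 bases or more) and short copies of each family, with one point per library, a horizontal bar at the group mean and an error bar of 1 SD on linear axes that start at 0. Long L1MdGf_I copies separate TKO and QKO from WT and LBRKO at both stages, and long L1MdTf_III copies in TKO (48.1 to 53.4 CPM in mES) lie below WT.

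Over the clades as a whole, long L1MdGf copies rose by log2 1.44 in TKO mES and 2.02 in QKO mES (4.06-fold), and by 0.78 and 1.51 in EpiLCs (each exact permutation, adjusted p = 0.00661). Long L1MdTf copies rose by 1.10 in QKO mES and 0.87 in QKO EpiLCs (each exact permutation, adjusted p = 0.00661) and differed by 0.46 in TKO mES (exact permutation, adjusted p = 0.0576) and -0.01 in TKO EpiLCs (exact permutation, adjusted p = 0.905). In LBRKO mES the sums did not pass the test, but the long to short ratio was lower in both clades, by log2 0.43 in L1MdTf and 0.39 in L1MdGf (log2 -0.43 and -0.39, each exact permutation, adjusted p = 0.00519).

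The fall of L1MdTf_III was steeper in the copies whose reading frames are intact. The 112 long L1MdTf_III copies with both frames open ran from 11.9 through 16.2 to 27.9 summed CPM in WT mES, were 12.8, 11.1, 15.6 and 9.51 CPM in LBRKO, 5.31, 6.05, 5.75 and 5.50 CPM in TKO and 9.43, 7.44, 7.10 and 6.84 CPM in QKO. In EpiLCs they ran from 18.0 through 22.8 to 31.4 CPM in WT, were 20.3, 17.9, 34.4 and 28.0 CPM in LBRKO, 11.1, 10.3, 12.0 and 11.9 CPM in TKO and 14.6, 12.8, 10.6 and 11.6 CPM in QKO. TKO and QKO lay below every WT library at both stages and LBRKO overlapped WT. The differences from WT were log2 -1.52 in TKO mES, -1.08 in QKO mES, -1.03 in TKO EpiLCs and -0.90 in QKO EpiLCs (each exact permutation, adjusted p = 0.0069 over 99 tests of this kind).

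The other 1092 long L1MdTf_III copies ran from 46.4 through 57.1 to 101 CPM in WT mES, were 42.8, 43.3, 45.8 and 47.9 CPM in TKO and 76.7, 78.2, 82.9 and 78.2 CPM in QKO. They overlapped WT in both mutants (log2 -0.42, exact permutation, adjusted p = 0.0531, and 0.40, exact permutation, adjusted p = 0.0847). In TKO EpiLCs these other copies also fell, to 59.6 to 68.6 CPM against 89.9 to 140.7 CPM in WT. The difference was log2 -0.73 (exact permutation, adjusted p = 0.0069), and in QKO EpiLCs it was -0.01 (exact permutation, adjusted p = 0.975). The ratio of intact to other reads within a library was lower, with means of 0.273 in WT mES, 0.126 in TKO and 0.0978 in QKO (log2 -1.10 and -1.48, each exact permutation, adjusted p = 0.00909). In EpiLCs the means were 0.218, 0.177 and 0.117 (log2 -0.30, exact permutation, adjusted p = 0.0303, and -0.90, exact permutation, adjusted p = 0.00909).

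The fall was also present without the most read copies. The 5 most read intact L1MdTf_III copies held 41.7% of the reads of their class, and the remaining 107 differed from WT by log2 -1.74 in TKO mES and -0.94 in QKO mES (exact permutation, unadjusted p = 0.00202 and 0.00606). Without their own 5 most read copies, the other long copies differed by log2 -0.54 in TKO mES (exact permutation, unadjusted p = 0.0121). In QKO mES the value was 0.26 (exact permutation, unadjusted p = 0.208). Counted copy by copy with no filter, 97 of 112 intact copies had a lower mean than WT in TKO mES and 87 of 112 in QKO mES. This held for 711 of the 1042 other long copies with any read in TKO and 521 of 1055 in QKO. The intact copies share much of their sequence, so these copies are not independent.

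In L1MdTf_I, L1MdTf_II and L1MdGf_I the intact copies were also higher in QKO. Intact L1MdTf_I copies rose from 58.3 to 125 mean CPM in QKO mES (log2 1.14) and the other long L1MdTf_I copies from 105 to 245 (1.26), and intact L1MdTf_II copies rose by 1.21 beside 1.31. Intact L1MdGf_I copies were 6.03, 6.53 and 15.6 CPM at the lowest, median and highest WT mES library, 19.9, 17.6, 19.5 and 18.0 CPM in TKO and 36.3, 29.8, 28.9 and 30.2 CPM in QKO, with no overlap with WT. They rose by log2 1.30 in TKO and 2.04 in QKO, less than the other long L1MdGf_I copies (2.63 in QKO), and the ratio of intact to other reads differed by -0.90 and -0.59 (each exact permutation, adjusted p = 0.00909). Without the 5 most read copies of each class the rises were 1.23 and 1.92 in the intact and 1.32 and 2.02 in the other copies. In mES cells 332 of 365 intact L1MdTf_I copies had a higher mean in QKO than in WT, as did 318 of 340 of L1MdTf_II and 131 of 138 of L1MdGf_I with reads. The shares were similar among the other long copies with reads, at 510 of 557, 636 of 699 and 434 of 469. The 8 intact L1MdGf_II copies were not tested, and their mean sums were 1.78 (WT), 1.48 (TKO) and 2.76 CPM (QKO) in mES cells.

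**Figure D3:**
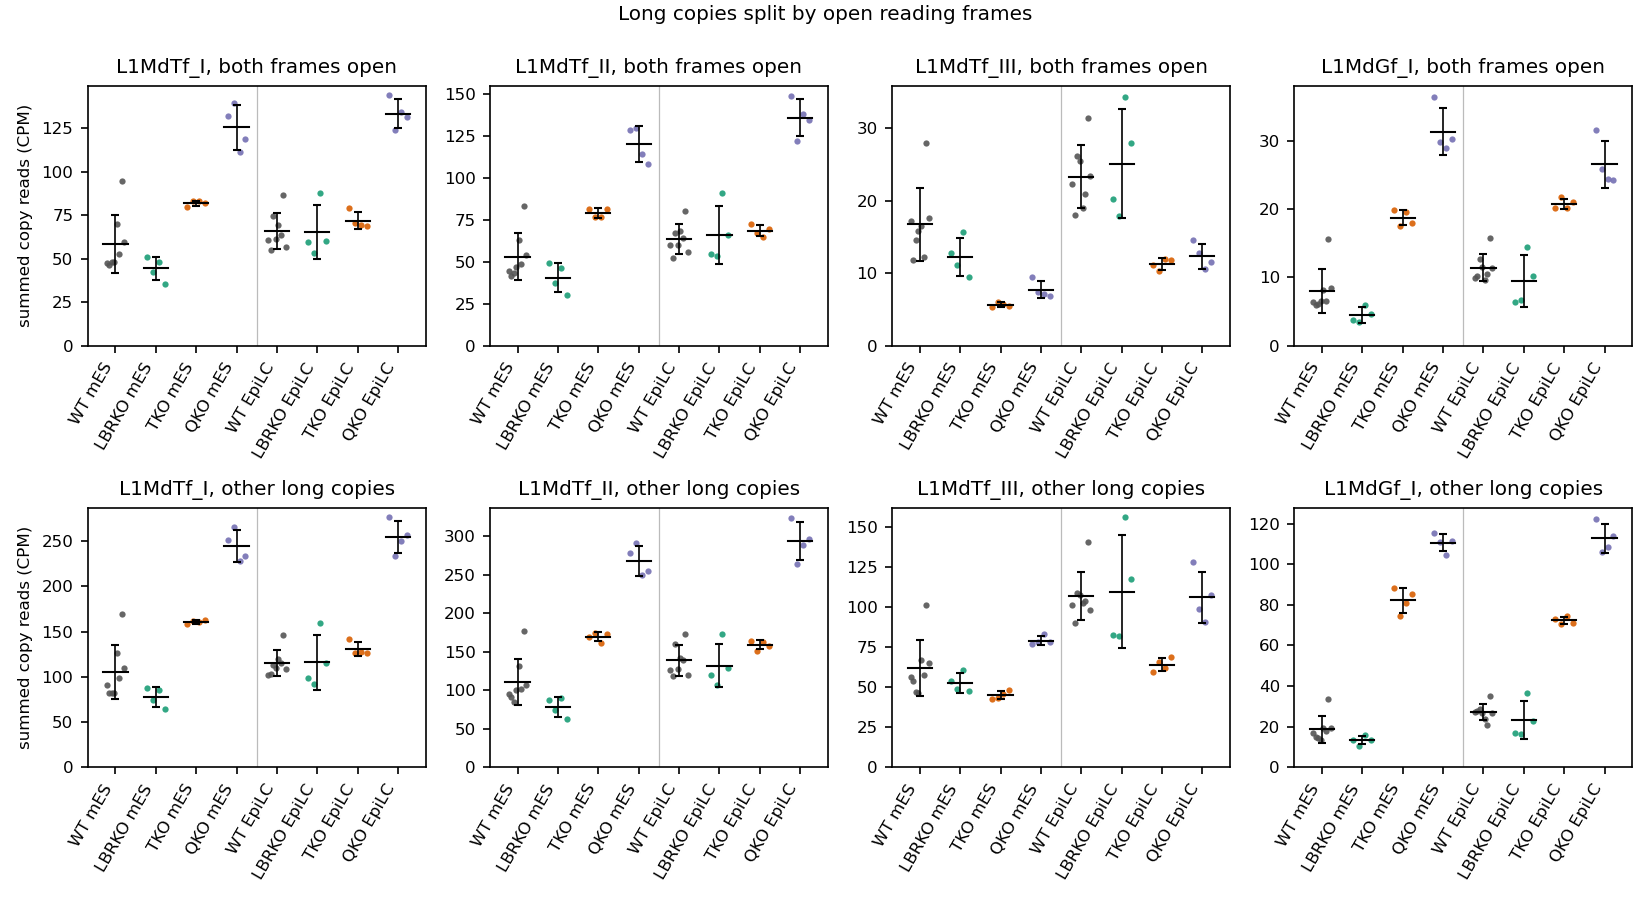
Summed CPM of long copies with both reading frames open and of other long copies in the 4 families other than L1MdGf_II, with one point per library, a horizontal bar at the group mean and an error bar of 1 SD on linear axes that start at 0. Intact L1MdTf_III copies in TKO mES (5.31 to 6.05 CPM) lie below every WT mES library (11.9 to 27.9 CPM).

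**Figure D4:**
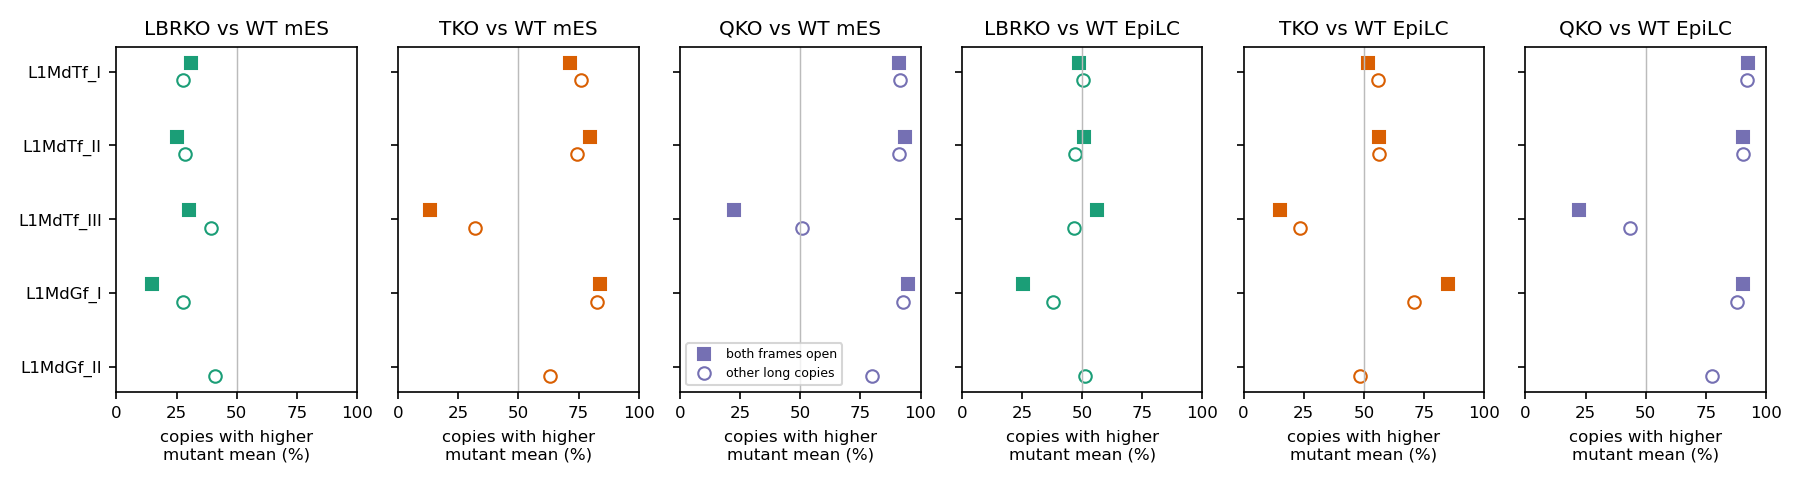
Percent of long copies with any read in a comparison whose mean CPM was higher in the mutant than in WT, by family and reading frame class, with no filter on low copies. Filled squares are copies with both frames open (not drawn for L1MdGf_II, which has 8), open circles the other long copies, and the grey line marks 50%. Intact L1MdTf_III copies are mostly lower in TKO and QKO at both stages (97 of 112 lower in TKO mES). Both intact and other long copies of L1MdTf_I, L1MdTf_II and L1MdGf_I are mostly higher in QKO.

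At the level of single copies, 1469 of the 22013 copies (1253 long and 216 short) had enough reads to be tested among 127346 TE copies, so the counts below describe that part. A copy, here as among all TE copies, could pass this filter through reads in mutant libraries alone. The shares of tested copies called higher can therefore follow in part from the filter. In QKO mES 637 of the 1469 copies were called higher and 62 lower, where 20.1% and 1.57% of all TE copies tested were called. Among long copies 220 of 467 L1MdTf_I, 239 of 479 L1MdTf_II, 24 of 142 L1MdTf_III, 73 of 97 L1MdGf_I and 30 of 68 L1MdGf_II were higher, and 37 L1MdTf_III copies were lower. The median over all TE copies tested was log2 0.67 in QKO mES, and scaling to the TE copies instead of to genes moved it to 0.03 and the calls to 257 higher and 98 lower. Without WT replicate 7 the calls were 748 and 57, and with WT replicates 5 to 8 alone 409 were higher. In TKO mES 167 were higher and 59 lower (background 3.14% and 0.758%), with 35 of 97 long L1MdGf_I copies higher and 37 of 142 long L1MdTf_III copies lower, 24 of the latter by over 10-fold. With TE scaling the TKO calls were 117 and 77, without WT replicate 7 they were 208 and 54, and with WT replicates 5 to 8 alone 102 were higher.

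In LBRKO mES 3 copies were higher and 56 lower (background 0.413% and 0.475%). The higher calls numbered 33 with WT replicates 1 to 4 alone, 1 with WT replicates 5 to 8 alone and 23 with the replicate number as a block. Among the 56 copies called lower, the 51 long ones were 19 L1MdTf_I, 22 L1MdTf_II, 3 L1MdTf_III and 7 L1MdGf_I copies. The median over all TE copies was log2 0.26 there, and with TE scaling 2 were higher and 137 lower. Leaving out LBRKO replicate 4 reduced the lower calls to 25, and leaving out WT replicate 7 gave 11 higher and 66 lower. Between QKO and TKO mES 32 copies were higher and none lower (background 1.07% and 0.132%; with an unadjusted p under 0.05 and the same fold 7 were lower by edgeR, and DESeq2 called none), and with TE scaling 12 were higher and 4 lower.

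In EpiLCs 578 copies were higher and 70 lower in QKO (background 31.8% and 1.34%), and 46 of the lower ones were long L1MdTf_III copies. The median over all TE copies was log2 0.85, and with TE scaling the calls were 127 higher and 134 lower. In TKO 53 were higher and 44 lower (background 2.25% and 0.542%), with 13 long L1MdGf_I copies higher and 17 long L1MdTf_III copies lower, and TE scaling gave 44 and 72. LBRKO had 11 higher and 8 lower (background 1.35% and 0.281%), or 9 and 17 with TE scaling, and without LBRKO replicate 3 the higher calls were 3. They were 18 and 7 with WT replicates 1 to 4 or 5 to 8 alone and 41 with the replicate block. Against TKO, QKO had 248 higher and 2 lower (background 13.2% and 0.569%), or 35 and 11 with TE scaling.

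The most read long copy of L1MdGf_I carried much of the rise of its class. L1MdGf_I_dup389 (chr3:6362472-6377610, + strand) is annotated over 15139 bases outside genes, 546116 bases from the nearest protein-coding gene, with a first frame of 1071 bases and no second frame. It ran from 0.0235 through 0.191 to 0.337 CPM in WT mES, was 0.0659, 0.0695, 0 and 0 CPM in LBRKO, 44.3, 34.4, 39.2 and 42.3 CPM in TKO and 40.6, 46.1, 38.8 and 44.6 CPM in QKO. The TKO and QKO libraries were far above every WT library and overlapped each other (log2 7.84 and 7.93 against WT, SE 0.28 each, and 0.09 between them, edgeR adjusted p = 0.885). In EpiLCs it was 0.257, 0.784 and 1.87 CPM at the lowest, median and highest WT library, 31.8, 28.8, 29.5 and 28.0 CPM in TKO and 45.9, 47.3, 48.6 and 51.9 CPM in QKO.

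The most read long copies of the other families followed other patterns. L1MdTf_II_dup3549 (chr17:40303276-40308925, + strand, outside genes) ran from 1.67 through 4.02 to 9.11 CPM in WT mES, was 1.69, 1.65, 2.11 and 1.47 CPM in LBRKO, 11.6, 14.1, 9.25 and 15.3 CPM in TKO and 17.8, 37.5, 21.2 and 23.5 CPM in QKO. It was lower in LBRKO (log2 -1.42, SE 0.34, edgeR adjusted p = 0.0136) though the libraries overlapped WT, and higher in TKO (1.43, edgeR adjusted p = 0.000405) and QKO (2.43, edgeR adjusted p = 2.27e-10). L1MdTf_I_dup751 (chr5:36395122-36402267, + strand), in Sorcs2 against the gene's strand, ran from 1.59 through 2.30 to 2.98 CPM in WT EpiLCs, was 1.91, 2.56, 3.08 and 2.97 CPM in TKO and 15.6, 10.5, 14.6 and 12.4 CPM in QKO. In EpiLCs it rose in QKO (log2 2.55, edgeR adjusted p = 2.99e-21), while the TKO value was 0.22 (edgeR adjusted p = 0.735), and QKO exceeded TKO by 2.33 (edgeR adjusted p = 3.08e-13).

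L1MdTf_III_dup634 (chr2:176785802-176791270, + strand, outside genes) rose in QKO by log2 1.01 in mES and 1.63 in EpiLCs, from means of 4.80 to 9.68 and of 3.30 to 10.2 CPM. L1MdGf_II_dup2512 (chr6:65077385-65083629, - strand), in Smarcad1 against the gene's strand, ran from 1.07 through 1.46 to 1.93 CPM in WT EpiLCs and was 2.06, 2.94, 5.83 and 1.99 CPM in LBRKO and 3.68, 3.21, 3.47 and 2.13 CPM in QKO. Both mutants lay above WT without overlap (log2 1.14, edgeR adjusted p = 0.000627, and 1.10, edgeR adjusted p = 0.00011), while TKO was 0.865, 1.85, 1.98 and 1.27 CPM and overlapped it.

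Among the copies that fell furthest were L1MdTf_III copies with full-length annotations. L1MdTf_III_dup4303 (chr17:40846035-40853143, - strand, outside genes) ran from 0.892 through 1.25 to 2.53 CPM in WT mES, was 0, 0.0708, 0.0295 and 0.0715 CPM in TKO and 0.0956, 0, 0.037 and 0.0332 CPM in QKO. L1MdTf_III_dup430 (chr2:46613425-46620625, - strand, outside genes), with both frames open at 1113 and 3843 bases, ran from 0.789 through 1.31 to 2.56 CPM in WT mES, was 0.194, 0.177, 0.0884 and 0.393 CPM in TKO and 0.319, 0.444, 0.222 and 0.133 CPM in QKO. Neither copy's TKO or QKO libraries overlapped WT, with log2 changes of -4.98 and -4.94 for L1MdTf_III_dup4303 and of -2.73 and -2.33 for L1MdTf_III_dup430 (edgeR adjusted p from 1.5e-12 to 3.82e-08).

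Not every L1MdTf_III copy fell. L1MdTf_III_dup1711 (chr6:141523763-141530208, - strand, outside genes) ran from 0.411 through 0.839 to 1.50 CPM in WT EpiLCs, was 1.63, 1.79, 5.35 and 3.45 CPM in LBRKO, 0.910, 0.819, 0.761 and 0.728 CPM in TKO and 4.18, 3.67, 2.94 and 4.14 CPM in QKO. LBRKO and QKO lay above WT (log2 1.72 and 2.01) and TKO inside its range (-0.21, edgeR adjusted p = 0.875). In mES cells the LBRKO value was -0.88 (edgeR adjusted p = 0.259) and the QKO value 2.77 (edgeR adjusted p = 3.19e-13).

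Among copies with a mean of at least 1 CPM in the higher group, the 3 with the largest fitted changes in TKO and in QKO mES were short copies on chromosome Y, L1MdTf_III_dup2929, L1MdGf_II_dup5409 and L1MdGf_II_dup5408. L1MdGf_II_dup5409 (chrY:90813323-90814006, - strand, 684 bases), in Erdr1y against the gene's strand, did not exceed 0.0364 CPM in any WT mES library and was 6.19, 7.89, 8.28 and 11.1 CPM in TKO and 16.5, 25.3, 33.9 and 18.7 CPM in QKO. L1MdTf_III_dup2930 (chrY:90743003-90743391, - strand) was 0 to 0.230 CPM in WT mES, 2.82, 3.36, 3.45 and 3.97 CPM in TKO and 8.44, 12.1, 13.2 and 10.5 CPM in QKO. L1MdTf_I_dup1665, which was chosen by the same rule, also lies on chromosome Y. The study's karyotyping found chromosome Y missing from parts of the WT and TKO cultures, and its part in these values was not tested. L1MdGf_II_dup6386 (chr13:66930151-66933742, + strand, 3592 bases), next in QKO mES by the same order, had no read in any of the 8 WT mES libraries and was 1.10, 1.06, 1.27 and 1.22 CPM in TKO and 0.828, 1.44, 1.48 and 1.99 CPM in QKO.

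In LBRKO mES the long copy L1MdTf_I_dup1449 (chrX:61240935-61246866, + strand, outside genes) was 0.264, 0.139, 0.263 and 0.0999 CPM against 0.655 to 1.74 CPM in WT, with no overlap (log2 -2.64, SE 0.33, edgeR adjusted p = 2.39e-08). In EpiLCs its change was -0.46 (edgeR adjusted p = 0.55). L1MdGf_II_dup1708 (chr4:49460402-49467368, - strand), in Acnat1 on the gene's strand, rose from a mean of 0.196 CPM in WT mES to 2.05 CPM in WT EpiLCs and was lower in the EpiLCs of all 3 mutants, at means of 0.952 in LBRKO, 0.934 in TKO and 0.735 in QKO. Because this copy lies on the gene's strand, the strand of a read would not separate its reads from those of Acnat1.

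**Figure D5:**
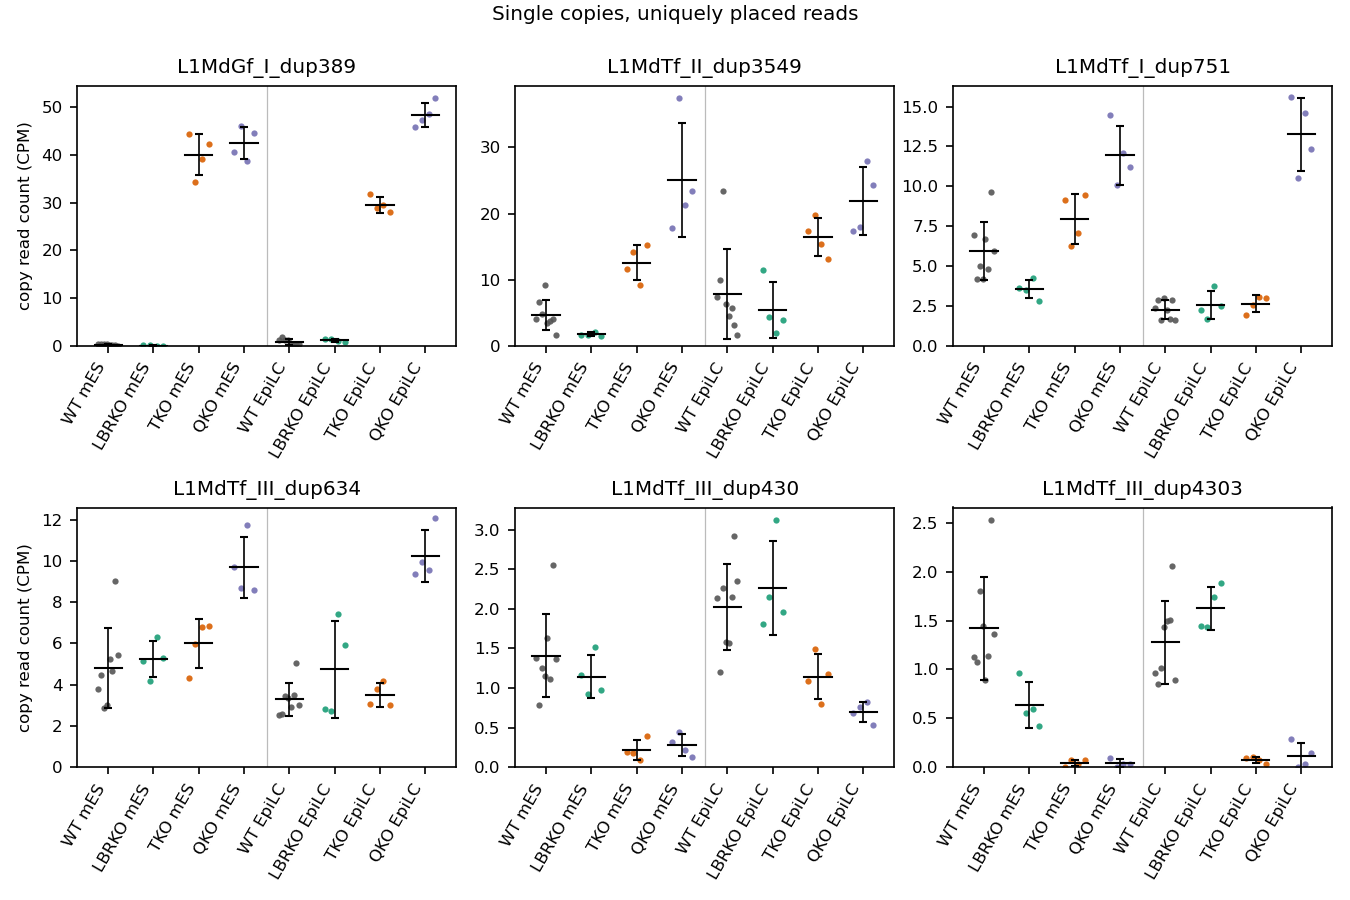
CPM of 6 single L1MdTf and L1MdGf copies in the 40 libraries, with one point per library, a horizontal bar at the group mean and an error bar of 1 SD on linear axes that start at 0. L1MdGf_I_dup389 is at or under 0.337 CPM in WT mES and at 34.4 to 46.1 CPM in TKO and QKO mES, and L1MdTf_III_dup4303 lies lower in TKO and QKO than in WT.

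Of 41 listed regulators of LINE-1 40 were tested, without a test of whether the share called differs from that of all genes. In QKO mES 2 were higher, Dnmt3l, the cofactor of the de novo DNA methyltransferases (mean 19.6 to 90.6 CPM, log2 2.21), and Piwil2, a germline piRNA protein (5.48 to 18.2 CPM, 1.74). The 2 lower ones were Mov10l1 (-1.31) and Tex15 (-1.23), both of the germline silencing pathway, beside 8.43% and 7.36% of all genes. In QKO EpiLCs 7 were higher (background 11.9%): Dnmt3l (2.09), Tet1, which oxidises methylcytosine (1.04), Morc1 (20.4 to 78.8 CPM, 1.95), Piwil2 (1.41), Tdrd9 (1.18), Tex19.1 (1.53) and Asz1 (1.51). In LBRKO EpiLCs 4 were higher, Dnmt3l (2.13), Tet2 (1.30), Morc1 (1.79) and Asz1 (1.87), beside 2.98% of genes called higher and 2.54% lower. In LBRKO mES cells Dnmt3l was higher (2.84) and Piwil4 and Mael, both of the germline piRNA pathway, were lower (-1.57 and -1.06), where 2.59% and 3.55% of genes were called. In TKO mES cells Dnmt3l (1.28) and Piwil2 (1.08) were higher and Piwil4 (-1.22) was lower, where 2.27% and 3.92% were called. Asz1 was higher in QKO than in TKO mES cells (1.35, background 3.65%). In EpiLCs 4 regulators were higher in QKO than in TKO, Dnmt3l (1.25), Morc1 (1.74), Tdrd9 (1.11) and Tex19.1 (1.99), and Piwil4 was lower (-1.19), where 8.92% and 5.44% were called. In QKO EpiLCs 7.92% of genes were called lower against WT. Between WT stages 10 of 40 were higher in EpiLCs and 6 lower, beside 17.1% and 12.9% of all genes. The DNA methylation genes Dnmt3a, Dnmt3b and Dnmt3l rose (log2 4.02, 4.31 and 2.63), as did Pphln1 of the HUSH complex (1.99), Piwil2, Piwil4, Mael and Mov10l1 of the germline list (1.79, 1.56, 4.21 and 2.18) and Dppa2 and Dppa4 (1.89 and 1.31). The RNA restriction factors Mov10, Apobec3 and Zc3hav1 fell (-3.01, -1.24 and -3.37), and Tet2, Morc1 and Tex15 were lower too (-3.31, -2.87 and -1.28).

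Markers of other cell states moved with genotype as well. Of 6 listed genes of the 2-cell-like state 4 were tested (Zscan4c, Zscan4d, Zscan4f and Usp17la), and they were lower in LBRKO and TKO mES cells in 4 of 4 cases and in QKO mES cells in 3 of 4, with medians of log2 -4.01, -5.31 and -3.71. Levels were close to the floor at this stage. The 4 genes together came to between 0.154 and 1.47 CPM per WT mES library, and no mutant mES library exceeded 0.121 CPM. The sizes of these mES log2 values are therefore uncertain. The Zscan4 genes are near-identical, so their separate values are uncertain too. In EpiLCs 4, 3 and 4 of these 4 genes were lower in LBRKO, TKO and QKO, and between WT stages all 4 were higher in EpiLCs. Of 7 primed epiblast markers 2 were lower in LBRKO mES cells and 4 each in TKO and QKO mES cells, and none was called in the mutant EpiLCs. Their sum was nonetheless lower in LBRKO EpiLCs (2383 to 2706 CPM) and QKO EpiLCs (2084 to 2223 CPM) than in WT EpiLCs (2958 to 3503 CPM). TKO EpiLCs (2884 to 3195 CPM) overlapped WT. Of 10 naive markers none was called in the mutant mES cells, 3 were higher in LBRKO EpiLCs, and 4 were higher and 1 lower in QKO EpiLCs. The naive sum was 262 to 388 CPM in LBRKO EpiLCs, above the 151 to 234 CPM of WT EpiLCs. TKO (166 to 183 CPM) and QKO EpiLCs (198 to 227 CPM) lay inside the WT range. Of 6 endoderm markers 2 were higher in LBRKO mES, 1 was lower in TKO mES, 4 were lower in QKO mES, and 2 were higher and 1 lower in QKO EpiLCs. Of 4 fibroblast markers tested no more than 2 were called in any mutant against WT. Between WT stages 10 of 10 naive markers fell, 7 of 7 primed markers rose, 3 fibroblast markers were higher, and 1 endoderm marker was higher and 1 lower. The shares of all genes called are those given with the regulators, and in TKO EpiLCs they were 1.46% higher and 1.34% lower. The part of these markers in the LINE-1 values was not tested.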

How the data were processed

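Total RNA depleted of ribosomal RNA was sequenced as paired-end stranded libraries. Per the study's methods, cutadapt 2.5 removed the leading overhang base, STAR 2.7.10a clipped adapters and aligned to GRCm39, and SAMtools 1.10 handled the alignments. The authors deposited raw read counts from featureCounts 1.6.4 for genes and for single TE copies (uniquely mapped reads), and counts of multimapped reads per gene and TE family from TEcount. The strand setting of the counting is not given in the sources used here. The members, gene lists and copy classes were chosen with earlier results of these data known.

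The deposited counts were fitted in edgeR 4.0.16 (R 4.3.3; quasi-likelihood test, 1 mean per group, all 40 libraries), families with genes under TMM scaling and copies with library sizes and TMM factors of the gene table, after filterByExpr with a minimum count of 10. Benjamini-Hochberg adjustment ran over all rows tested, and calls needed an adjusted p under 0.05 and over 2-fold. Sums over all copies of a class, as CPM, and their ratios were compared by two-sided exact permutation tests on log2 values, adjusted over all sums or ratios and comparisons of the same kind. The smallest p is 0.00202 for 4 against 8 libraries, 0.0286 for 4 against 4 and 0.000155 for 8 against 8.

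Copies named in the text are, per comparison, those past the thresholds with no overlap between libraries and a mean of at least 1 CPM in the higher group that had the largest changes in each direction (5 and 5 for QKO against WT, 3 and 3 elsewhere), of which a selection is described, and the most read long copy of each family. Sequences and open reading frames were read from GRCm39 with pysam 0.24.0 on the annotated strand, a first frame of 1000 to 1300 bases and a second of at least 3800 bases counting as open. On simulated data 40% of 100 copies changed by log2 2 were recovered for QKO against WT mES and 46% for EpiLCs, and 21% and 28% at log2 1.5. Alternatives were DESeq2 1.42.0, other scalings, filters, length limits and WT subsets, a replicate block and leaving out each library. Their effect is given in the closing section.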

Additional observations from a re-analysis of the deposited data

Results flagged for a closer look

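Of 160 groups of 4 or 8 libraries examined (family CPM, class sums and long to short ratios), 25 held 1 library standing apart from the others of its group by Dixon's test, and chance flags about 1 in 20 groups. WT replicate 7 was the library that stood apart in 12 of them. In WT mES it was the highest library for L1MdTf_III (340 CPM) and L1MdGf_I (157 CPM) in the family table, and for the summed reads of long L1MdGf_I (49.2 CPM), short L1MdGf_I (33.7 CPM), long L1MdGf_II (46.3 CPM), short L1MdGf_II (58.6 CPM), short L1MdTf_II (69.3 CPM), long L1MdTf_III (129 CPM) and short L1MdTf_III (46.1 CPM). In WT EpiLC replicate 7 was highest for long L1MdGf_II (55.9 CPM), long L1MdTf_I (233 CPM) and long L1MdTf_III (172 CPM).

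The other libraries that stood apart were spread over the mutants. In the family table these were LBRKO mES replicate 4 for L1MdTf_I (277 CPM, low), LBRKO mES replicate 2 for L1MdTf_II (546 CPM, high), TKO EpiLC replicate 1 for L1MdTf_I (718 CPM) and L1MdTf_II (1180 CPM), and QKO EpiLC replicate 1 for L1MdTf_II (1871 CPM) and L1MdGf_I (420.4 CPM). Among sums they were TKO EpiLC replicate 1 for long L1MdTf_I (221 CPM), TKO mES replicate 4 for short L1MdTf_I (26.2 CPM) and QKO mES replicate 4 for short L1MdTf_II (68.4 CPM, low). Among long to short ratios they were QKO EpiLC replicate 1 for L1MdGf_II (0.785), LBRKO mES replicate 4 (7.15) and QKO mES replicate 3 (7.33) for L1MdTf_I, and WT EpiLC replicate 1 for L1MdTf_III (3.68).

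Differences between effects that passed the edgeR interaction test numbered 12. The LBRKO change differed between stages for L1MdTf_I (0.52) and L1MdTf_II (0.72), and the QKO change for L1MdGf_I (-0.65). The QKO change differed from the sum of the LBRKO and TKO changes in mES cells for L1MdTf_I (1.01), L1MdTf_II (0.98), L1MdTf_III (1.00), L1MdGf_I (1.13) and L1MdGf_II (0.68), and in EpiLCs for L1MdTf_I (0.93), L1MdTf_III (0.64), L1MdGf_I (0.73) and L1MdGf_II (0.64), all on the log2 scale.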

How the results depend on the processing

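Uniquely mapped reads cover only the distinct parts of these young copies, and few short copies had enough reads to be tested, so a copy with no call is not shown to be alike. The QKO line is a single clone, and clone and genotype cannot be told apart. The same holds for line and lamin genotype in TKO and QKO against WT. Settings that left out chromosome Y copies, the most read copy of each class or its 5 most read copies were chosen after seeing the data. WT subsets were judged for permutation results by value alone, and fits without a library reused the dispersion trend of all libraries. Over the results that answer a comparison, and apart from leaving out single libraries, 552 alternative values were scored as unchanged. Of the rest, 71 moved away from the main value and 26 turned direction. A further 18 passed the threshold only in the alternative and 8 only in the main result, and all of these are given here. Counts of calls were scored by how close they lay to the main count. Other results were scored by direction and side of the threshold. The cause was not tested.

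Copies called higher. With a 10-fold threshold the counts were 0 in LBRKO EpiLC (main 11), 1 in LBRKO mES (3), 4 in QKO against TKO EpiLC (248), 5 in QKO against TKO mES (32), 29 in QKO EpiLC (578), 50 in QKO mES (637), 12 in TKO EpiLC (53), 28 in TKO mES (167) and 12 between WT stages (187). With TMM of the TE copies they were 35 and 12 in QKO against TKO (EpiLC, mES), 127 in QKO EpiLC and 257 in QKO mES. With WT replicates 1 to 4 they were 18 in LBRKO EpiLC, 33 in LBRKO mES and 33 in TKO EpiLC, and with WT replicates 5 to 8 they were 7 and 1 in LBRKO (EpiLC, mES), 409 in QKO mES, 102 in TKO mES and 87 between WT stages. Testing every copy with 10 reads in total gave 114 and 19 in QKO against TKO and 370 between WT stages, DESeq2 gave 49 in QKO against TKO mES, and leaving out chromosome Y gave 1 in LBRKO mES.

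Copies called lower. With a 10-fold threshold the counts were 1 in LBRKO EpiLC (main 8), 1 in LBRKO mES (56), 1 in QKO against TKO EpiLC (2), 13 in QKO EpiLC (70), 21 in QKO mES (62), 8 in TKO EpiLC (44), 30 in TKO mES (59) and 1 between WT stages (51). With TMM of the TE copies they were 17 and 137 in LBRKO (EpiLC, mES), 11 and 4 in QKO against TKO, 134 and 98 in QKO and 72 in TKO EpiLC. With WT replicates 1 to 4 they were 37 in QKO mES, 27 in TKO EpiLC, 35 in TKO mES and 29 between WT stages, and with WT replicates 5 to 8 they were 4 in LBRKO EpiLC. DESeq2 gave 13 and 85 in LBRKO and 1 in QKO against TKO EpiLC, 10 reads in total gave 1 in LBRKO EpiLC and 81 between WT stages, and leaving out chromosome Y gave 1 in QKO against TKO EpiLC.

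Families called. With a 10-fold threshold none was called in any comparison (main 4 in QKO mES, 4 in QKO EpiLC, 1 in TKO mES, 1 in TKO EpiLC). WT replicates 5 to 8 gave 2 in QKO mES, and WT replicates 1 to 4 or no low-count filter gave 0 in TKO EpiLC.

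The replicate numbers were not taken as pairs, because no comparison had every correlation of same-numbered deviations above 0.1 (range -0.26 to 0.45). All 8 pairs of WT EpiLC and mES libraries were positive, from 0.0070 to 0.45, and replicate 1 was at 0.23 to 0.30 in the 4 mutant EpiLC comparisons. With the replicate number as a block, copies called higher were 41 in LBRKO EpiLC, 23 in LBRKO mES and 57 in QKO against TKO mES, copies lower in QKO against TKO mES were 2 (main 0), L1MdGf_II in LBRKO mES was 0.010 (main -0.02) and L1MdTf_III in QKO EpiLC was 0.071 (main -0.02).

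Long to short ratios (log2). Outside gene spans L1MdGf was -0.16 in LBRKO EpiLC (main -0.19), 0.058 in QKO EpiLC (0.22) and 0.22 in QKO mES (0.57), and L1MdTf was 0.050 in LBRKO EpiLC (-0.09), -0.44 in QKO EpiLC (-0.14), -0.40 in QKO mES (0.01), -0.29 in TKO EpiLC (-0.08), -0.17 in TKO mES (0.07) and -0.094 between WT stages (0.03). Without chromosome Y L1MdGf was 0.11 in QKO against TKO EpiLC (-0.15), and L1MdTf was 0.12 and 0.10 in QKO against TKO (-0.06 and -0.06), 0.33 in QKO EpiLC, 0.34 in QKO mES, 0.21 in TKO EpiLC and 0.24 in TKO mES. Without the most read copy L1MdGf in QKO against TKO mES was 0.10 (-0.17). A limit of 4000 bases gave 0.14 for L1MdGf in QKO EpiLC and -0.022 for L1MdTf in QKO mES, and 6000 gave L1MdTf -0.064 in QKO EpiLC, -0.10 in QKO mES, -0.036 in TKO mES and -0.10 between WT stages. L1MdGf between WT stages (0.30) was 0.42 and 0.18 with WT replicates 1 to 4 and 5 to 8.

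Sums (log2). Outside gene spans long L1MdGf in LBRKO mES was -0.51 (main -0.20), short L1MdGf in LBRKO EpiLC -0.10 (0.10) and mES -0.17 (0.19), long L1MdTf in LBRKO mES -0.48 (-0.38) and in TKO mES 0.55 (0.46), and short L1MdTf -0.11 in LBRKO EpiLC (0.07), -0.23 in LBRKO mES (0.05), 0.28 in TKO EpiLC (0.07), 0.71 in TKO mES (0.39) and 0.57 between WT stages (0.34). Scaled to TE copy reads, long L1MdGf in LBRKO mES was -0.39, short L1MdGf in LBRKO EpiLC -0.028 and mES -0.00193, long L1MdTf -0.57 in LBRKO mES and 0.32 in TKO mES, and short L1MdTf -0.0563 in LBRKO EpiLC, -0.14 in LBRKO mES, -0.0560 in TKO EpiLC and 0.30 between WT stages. Without chromosome Y short L1MdGf in TKO EpiLC was 0.14 (0.41) and short L1MdTf -0.22 (0.07), and without the most read copy 0.17 and -0.027. With WT replicates 1 to 4 and 5 to 8 short L1MdTf was 0.36 and -0.26 in LBRKO mES, 1.40 and 0.78 in QKO mES (1.09) and 0.70 and 0.083 in TKO mES. A limit of 4000 gave 0.29 for short L1MdGf between WT stages (0.34), and 6000 gave 0.32 for long (0.37) and 0.42 for short L1MdTf there and -0.16 for short L1MdTf in LBRKO mES. DESeq2 size factors gave 0.51 for long L1MdTf in TKO mES and 0.37 for short L1MdTf between WT stages.

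Some single families and classes turned direction. L1MdGf_II in LBRKO mES was 0.00208 with DESeq2 size factors, 0.068 with WT replicates 1 to 4 and 0.00753 without a low-count filter. L1MdTf_I in LBRKO EpiLC (0.04) was -0.019 and L1MdTf_III in QKO mES (0.06) was -0.091 with WT replicates 5 to 8, and L1MdTf_III in QKO EpiLC was 0.00444 with WT replicates 1 to 4. The L1MdGf_II ratio was 0.41 in QKO EpiLC (-0.36) and 0.11 in TKO EpiLC (-0.33) without chromosome Y and 0.051 in QKO EpiLC without the most read copy, and short L1MdGf_II in TKO EpiLC (0.40) was -0.030 without chromosome Y. At 6000 bases the L1MdTf_II ratio in TKO EpiLC (0.23) was -0.035 and the L1MdTf_III ratio between WT stages (0.21) -0.013, or -0.087 outside gene spans. Without the 5 most read copies, other long L1MdGf_II copies in LBRKO mES (0.07) and intact L1MdTf_II copies in LBRKO EpiLC (0.03) were at -0.0119 and -0.0111.

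Leaving out 1 library at a time, copies called higher ranged from 3 to 15 in LBRKO EpiLC, 1 to 11 in LBRKO mES and 15 to 29 in QKO against TKO mES, and copies called lower from 2 to 9 in LBRKO EpiLC, 25 to 66 in LBRKO mES and 1 to 2 in QKO against TKO EpiLC. Families called ranged from 0 to 3 in QKO against TKO EpiLC, 2 to 4 in QKO EpiLC and 0 to 1 in TKO EpiLC. Ratios ranged from -0.24 to -0.16 for L1MdGf in LBRKO EpiLC, and for L1MdTf from -0.11 to 0.010 in QKO against TKO mES, -0.19 to -0.11 in QKO EpiLC, -0.047 to 0.077 in QKO mES and -0.00160 to 0.052 between WT stages. Sums ranged in LBRKO EpiLC from -0.33 to 0.052 (long L1MdGf), -0.091 to 0.23 (short L1MdGf), -0.18 to 0.083 (long L1MdTf) and -0.089 to 0.17 (short L1MdTf), and in LBRKO mES from 0.14 to 0.28 (short L1MdGf) and -0.013 to 0.16 (short L1MdTf). They ranged from -0.045 to 0.040 for long L1MdTf in TKO EpiLC, 0.41 to 0.56 for long and 0.33 to 0.50 for short L1MdTf in TKO mES, and 0.31 to 0.47 for long and 0.28 to 0.45 for short L1MdTf between WT stages. Single families ranged from -0.078 to 0.049 for L1MdGf_II in LBRKO mES, -0.10 to 0.12 for L1MdTf_I and -0.10 to 0.16 for L1MdTf_III in LBRKO EpiLC, and -0.14 to 0.063 for L1MdTf_III in QKO EpiLC.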
